A study of Lactuca sativa with 20 samples.

Results

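Whole lettuce seedlings (*Lactuca sativa*, variety Little Gem) held for 2 h in 10 µM ACC were compared with seedlings held for 2 h in water, by RNA sequencing. The comparison was taken from the labelled treatment and uses 6 libraries, 3 with ACC and 3 with water, of the 20 in the series, and it covers all 37828 gene models of the count table. The seedlings were 4 days old, came from MS medium at 22 °C with the light always on, and were frozen whole, so the RNA of all organs was pooled. The other groups used here carried 10 µM CLE12p together with 10 µM ACC (3 libraries), 10 µM CLE12p alone (3), 10 µM CLE12p together with 10 µM ABA (3), 10 µM ABA (3) or 0.02% ethanol (2), all for the same 2 h. CLE12p is a peptide named by the study after the lettuce gene *LsCLE12*, and ABA is the stress hormone abscisic acid. For the combination that contains ACC, the design text names ABA with ACC, while the labels of its 3 libraries give CLE12p with ACC, which is used here. Nothing in the labels ties ACC to either control or tells whether each replicate was its own batch of plants, so the p-values measure the spread between libraries, which may be partly technical.

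ACC (1-aminocyclopropane-1-carboxylic acid) is turned by the plant enzyme ACC oxidase into ethylene, a gaseous hormone of ripening, senescence and stress. In Arabidopsis, ethylene binding switches off receptors that otherwise hold the pathway silent through the kinase CTR1, which lets the membrane protein EIN2 signal to the transcription factors EIN3 and EIL1 in the nucleus. These raise a further layer of ethylene response factors and also the genes of their own repressors, so that early changes in transcript level include both activation and feedback. The count table gives gene model identifiers without names, and 0 of the 37828 matched the reference gene table used here. No gene can therefore be placed in this pathway below, the seedling label could not be checked against marker genes, and single genes are given by identifier only.

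ACC libraries held 24257323, 27101622 and 26579217 counts and water libraries 21543748, 21360979 and 21735755, so every ACC library was deeper than every water library. Gene models with at least 1 count numbered 25026 to 25134 in ACC and 24927 to 24948 in water (exact two-sided permutation p = 0.1, the smallest that 3 against 3 libraries can give). The 100 most abundant gene models took 19.9% to 20.5% of the counts in ACC libraries and 20.0% to 21.6% in water libraries (exact permutation p = 0.3). Libraries were also compared by the root mean square difference of log2 CPM per gene, where CPM is the reads of a gene scaled to a common library total. ACC libraries differed from water libraries by 0.515 to 0.575, from each other by 0.423 to 0.435, and water libraries from each other by 0.456 to 0.476. Each of the 9 pairs of an ACC and a water library was thus farther apart than any pair within either group. Ethanol libraries lay at 0.501 to 0.575 from ACC and at 0.442 to 0.510 from water.

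ACC changed many genes by small amounts, and the larger changes were mostly increases. Of 23413 genes with enough counts to test, 1895 passed an adjusted p of 0.05 in edgeR's quasi-likelihood test, which is 8.09% of them. Among these, 1165 rose (4.98% of genes tested) and 730 fell (3.12%). The genes that rose had a median log2 fold change of 0.63 (interquartile range 0.42 to 1.00), and those that fell had a median of -0.52 (-0.76 to -0.40). Over all genes tested the median was -0.01. In whole seedlings, a shift in how many cells express a gene and a shift in RNA per cell cannot be told apart. Changes under 1.5-fold made up 44.8% of the genes that rose and 59.3% of those that fell. A fitted change of at least 2-fold was seen in 380 of the called genes (1.62% of genes tested), of which 296 rose (1.26%) and 84 fell (0.359%). At 4-fold or more there were 47 that rose and 8 that fell. A stricter test asked whether a change exceeded 1.5-fold, and 162 genes passed it (0.692% of genes tested), 142 that rose (0.607%) and 20 that fell (0.0854%). Leaving out water replicate 1 reduced the calls to 1094, and leaving out ACC replicate 1 or ACC replicate 3 reduced them to 1203 or 1223. With all libraries thinned to the same total of 18614220 counts, 1803 genes were called.

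The 3 ACC libraries all lay above the 3 water libraries in 1156 of the 1165 genes that rose, where 14.8% of all genes tested had this arrangement. They all lay below in 715 of the 730 that fell, against 12.5% of all genes tested. Since the call itself rests on this separation, these counts only describe how the calls look. Within groups, the genes that rose had a median SD of 0.102 log2 CPM between ACC libraries and 0.146 between water libraries, and the genes that fell had 0.113 in ACC and 0.118 in water (n = 3 each). Over all genes tested the median SD was 0.129 in ACC and 0.149 in water.

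**Figure D1:**
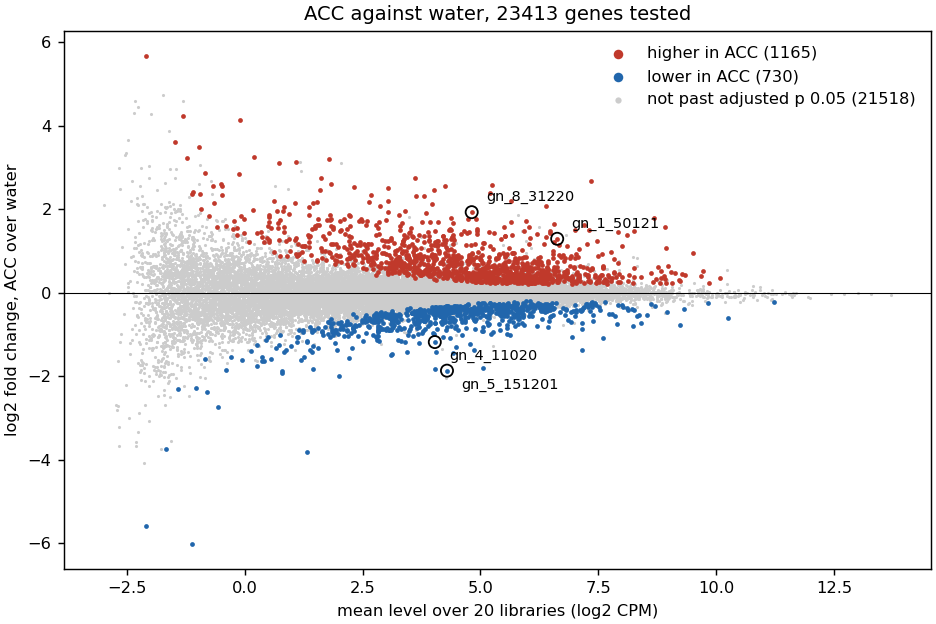
Log2 fold change of ACC over water against the mean log2 CPM over 20 libraries, with 1 point per gene tested. The 1165 genes higher in ACC have a median of 0.63 and the 730 lower ones a median of -0.52, and circles mark the 4 genes described by identifier, each of which lies well inside the range of levels where calls are dense.

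Called genes were found at all levels of expression, and the called changes were larger in genes with few reads. Levels here are CPM averaged over all 20 libraries and are not divided by gene length, so they stand for reads per gene and not for transcript number. Below 1 CPM, 19 of 2932 genes rose and 11 fell, with a median change of 5.21-fold upward and 4.97-fold downward among the calls. Between 1 and 10 CPM, 242 of 7475 genes rose by a median of 2.13-fold and 184 fell by a median of 1.78-fold. Between 10 and 100 CPM, 745 of 11084 rose (median 1.46-fold) and 472 fell (median 1.37-fold). At 100 CPM and above, 159 of 1922 rose, which is 8.27% of that class, and 63 fell, which is 3.28%. The median standard error of the log2 fold change was 0.616 in the lowest class and 0.0777 in the highest. A call in a low class thus needed a larger change, so the medians of the calls do not compare the response between classes. In every class more genes rose than fell.

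**Figure D2:**
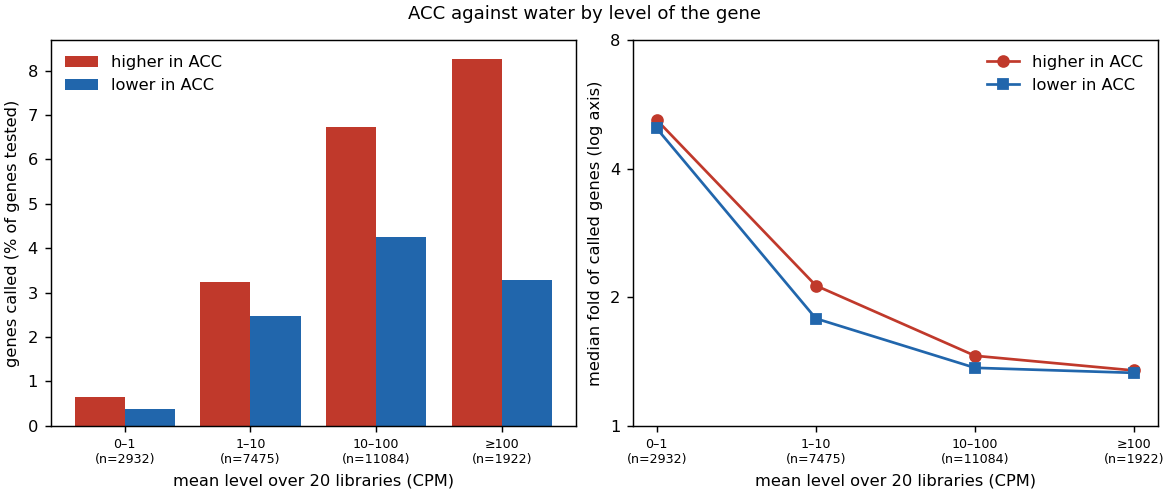
Left, percent of genes tested that were called in ACC against water, by mean level in CPM, for genes higher and lower in ACC. Right, the median fold of the called genes on a log axis, which falls from 5.21 and 4.97 in the lowest class to 1.35 and 1.33 in the highest. Calls in the lower classes needed larger changes to pass.

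The genes that rose took 81366.5 to 85589.1 CPM of the ACC libraries, summed over the 1165 genes, and 52486.9 to 57760.7 CPM of the water libraries. The 730 genes that fell took 28368.0 to 30253.3 CPM in ACC and 39791.6 to 40793.0 CPM in water. These sums follow from the choice of the genes and describe how much of the scaled reads these genes took, not an amount of RNA. The gain was spread over many genes. The 10 genes with the greatest gain held 16.8% of it, and 103 genes were needed to reach 50% of it. Among the falling genes, the 10 with the greatest loss held 20.2% of the summed loss, and 72 genes were needed to reach 50%.

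In each direction, the 2 genes with the smallest p among called genes averaging 1 log2 CPM or more, and without overlap between ACC and water libraries, are given library by library. Their separation from water was thus part of the choice. Lsat_1_v5_gn_8_31220 had 59.2, 56.1 and 61.0 CPM in the ACC libraries, against 15.1, 12.0 and 19.1 CPM in the water libraries. The ACC libraries were close together and each stood more than 2-fold above the highest water library. Its log2 fold change was 1.93 ± 0.12 (SE; edgeR adjusted p = 3.19e-09), the smallest p of any gene in the comparison. Levels were also high in CLE12p with ACC, at 62.7 ± 4.33 CPM (SD, n = 3), whose range of 58.2 to 66.8 CPM overlapped that of ACC alone. The groups without ACC were all low, with 22.8 ± 1.42 CPM in CLE12p, 22.1 ± 1.94 in CLE12p with ABA, 22.2 ± 1.98 in ABA (n = 3 each) and 19.6 ± 0.360 in ethanol (n = 2). Every library with ACC, with or without the peptide, held at least 56.1 CPM, and the other 14 libraries lay between 12.0 and 24.3 CPM. Ranges of CLE12p, CLE12p with ABA and ABA overlapped one another, ethanol (19.3 to 19.8 CPM) lay just below them, and water lay lowest.

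Lsat_1_v5_gn_1_50121 was the other rising gene chosen by this rule. It had 151.5, 140.7 and 146.2 CPM in ACC, against 47.1, 70.2 and 61.3 CPM in water, a log2 fold change of 1.30 ± 0.10 (SE; edgeR adjusted p = 1.49e-07). CLE12p with ACC was the highest group at 163.6 ± 8.65 CPM (SD, n = 3), all of its libraries above all of ACC alone, and CLE12p by itself was at 65.3 ± 5.42 CPM, inside the range of water. This gene was also higher with ABA, at 108.7 ± 0.822 CPM in ABA (n = 3) and 80.7 ± 8.06 CPM in ethanol (n = 2), with a log2 fold change of 0.43 ± 0.11 (SE; edgeR adjusted p = 0.0149). ABA and CLE12p with ABA (107.6 ± 4.76 CPM) did not separate. The gene was the first of 3 consecutive tested identifiers that all rose with ACC, by log2 fold changes of 0.47 to 1.30.

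Of the falling genes, Lsat_1_v5_gn_4_11020 had 13.0, 12.8 and 11.7 CPM in ACC, against 29.4, 28.4 and 27.1 CPM in water. The SD was 0.739 CPM in ACC and 1.17 CPM in water (n = 3 each), and the log2 fold change was -1.18 ± 0.09 (SE; edgeR adjusted p = 1.49e-07). Lower levels than in water were found in each of the other groups too, with 13.1 ± 0.724 CPM in CLE12p with ACC, 18.5 ± 0.770 in CLE12p, 10.6 ± 0.767 in CLE12p with ABA, 15.8 ± 0.658 in ABA (SD, n = 3 each) and 23.9 ± 2.85 in ethanol (n = 2). The range of ACC overlapped that of CLE12p with ACC, and CLE12p with ABA lay below both. Beside the peptide, ACC lowered the gene by less, with a log2 fold change of -0.50 ± 0.09 (edgeR adjusted p = 0.00302). The difference between the ACC effects with and without the peptide was 0.68 ± 0.13 on the log2 scale and did not pass the interaction test (adjusted p = 0.135). ABA against ethanol gave -0.59 ± 0.10 (adjusted p = 3.07e-04).

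Lsat_1_v5_gn_5_151201 had 8.90, 9.32 and 7.47 CPM in ACC, against 31.4, 30.2 and 31.8 CPM in water. The highest ACC library held under 10 CPM while all water libraries held over 30 CPM, and the log2 fold change was -1.86 ± 0.15 (SE; edgeR adjusted p = 2.28e-07). Its level moved the other way with ABA, to 62.0 ± 1.32 CPM in ABA (SD, n = 3), against 30.1 ± 2.19 CPM in ethanol (n = 2), a log2 fold change of 1.04 ± 0.16 (adjusted p = 9.56e-05). With CLE12p alone it stood at 14.7 ± 0.0483 CPM, between ACC and water, and with CLE12p and ACC together at 6.43 ± 1.19 CPM, the lowest group. CLE12p with ABA lay at 26.9 ± 7.57 CPM, with single libraries from 18.5 to 33.1 CPM that span the ranges of ethanol and water. For all 4 genes the direction and the call held under each of the 14 alternatives in which the fold change was recomputed. The size depended on the control. With ethanol as the control the log2 fold changes were 1.59 for Lsat_1_v5_gn_8_31220 and 0.86 for Lsat_1_v5_gn_1_50121. They were -0.93 for Lsat_1_v5_gn_4_11020 and -1.81 for Lsat_1_v5_gn_5_151201, so all 4 were smaller in size than against water.

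**Figure D3:**
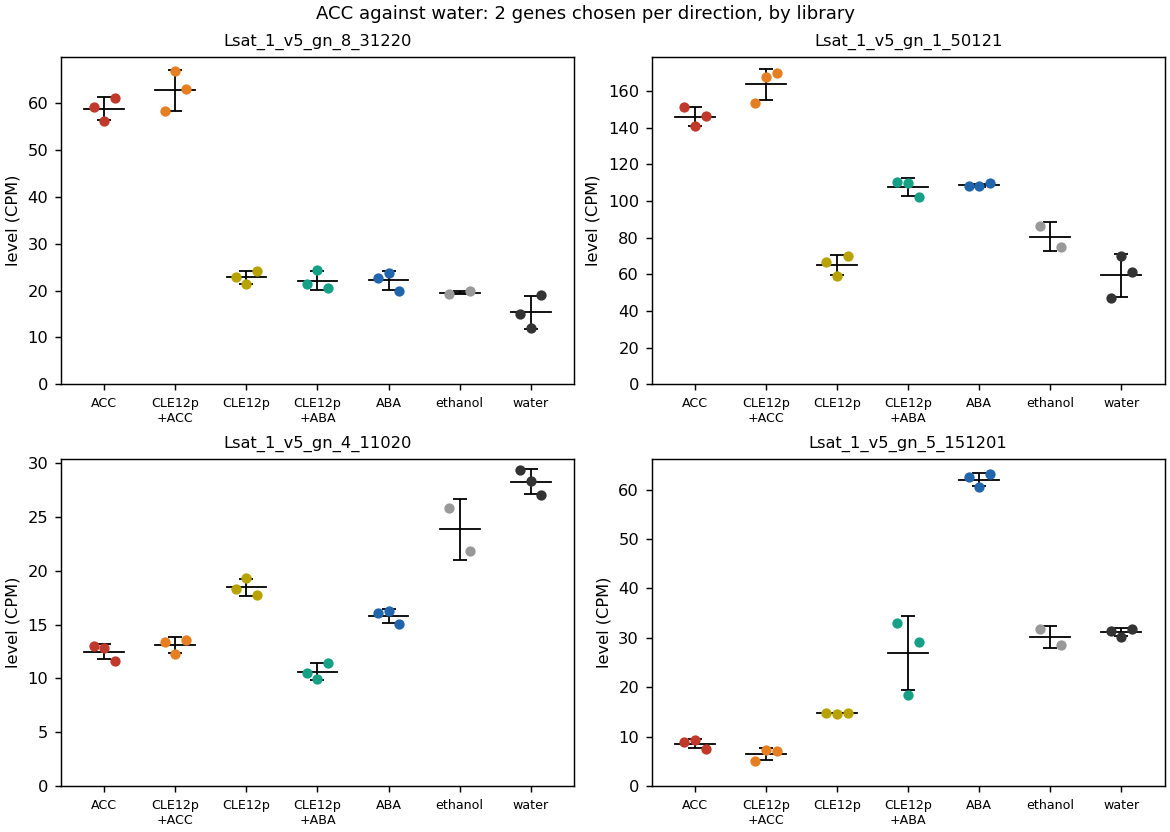
Level in CPM of the 4 genes chosen by smallest p, level and lack of overlap, 2 per direction, in each of the 20 libraries, by group, with the group mean (bar) and SD (whiskers). Libraries of ACC and of CLE12p with ACC all lie at 56.1 CPM or more for Lsat_1_v5_gn_8_31220 and below 10 CPM for Lsat_1_v5_gn_5_151201, whose highest group is ABA.

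The ACC effect was also read in 6 libraries outside the groups compared, as CLE12p with ACC against CLE12p alone. By root mean square difference of log2 CPM, these 2 groups lay 0.495 to 0.583 apart. CLE12p libraries lay 0.502 to 0.556 from each other, so distances between and within groups overlapped, unlike those of ACC and water. The spread of each gene was estimated over all 20 libraries, so the calls in both comparisons were not independent. Beside CLE12p, 1136 genes were called (4.85% of those tested), 588 higher (2.51%) and 548 lower (2.34%). When only the libraries compared were fitted, 362 were called, 233 higher and 129 lower. The counts and shares below use the 1136 genes and were not recomputed for the 362. When genes were chosen in these libraries and read in ACC against water, 576 of the 588 higher genes were also above 0 in ACC against water, with a median log2 fold change of 0.52 (interquartile range 0.30 to 0.93). Of these 588, 395 were called higher and 0 lower in ACC against water, beside 4.98% and 3.12% of all genes tested. Of the 548 lower genes, 508 were also below 0, with a median of -0.36 (-0.56 to -0.18), and 249 were called lower and 0 higher, beside the same 3.12% and 4.98%. The 3 ACC libraries stood entirely above the 3 water libraries in 83.0% of the 588 genes, beside 14.8% of all genes tested, and entirely below in 64.8% of the 548, beside 12.5%.

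Read the other way, the 1165 genes that rose with ACC in water had a median of 0.34 beside the peptide (interquartile range 0.15 to 0.61), and 1054 of them were above 0. The 730 that fell had a median of -0.34 (-0.51 to -0.18), and 686 were below 0. Beside the peptide, 49.6% of all genes tested were above 0 and 50.4% were below 0. Genes chosen in a comparison have their own values pushed away from 0 by that choice, so neither pair of medians gives the relative size of the effect with and without the peptide. The calls shared by both comparisons were 33.9% of the genes that rose with ACC in water and 67.2% of those that rose beside the peptide, and 34.1% and 45.4% for genes that fell. Of all genes tested, 4.98% rose and 3.12% fell in water, and 2.51% rose and 2.34% fell beside the peptide. Shared direction held across sizes, from 87.0% of rising genes changed by under 1.5-fold to 94.8% of those changed by 2 to 4-fold, and from 93.5% to 90.8% for the same classes of falling genes. It was 87.2% among the 47 rising genes changed by at least 4-fold. Across all 23413 genes the fold changes correlated with Pearson r = 0.35 and Spearman rho = 0.34, as a description across genes, which are not independent replicates. The number of calls beside the peptide ranged from 559 without CLE12p replicate 1 to 1617 without CLE12p replicate 3, and was 604 without CLE12p with ACC replicate 2 and 668 without CLE12p replicate 2.

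**Figure D4:**
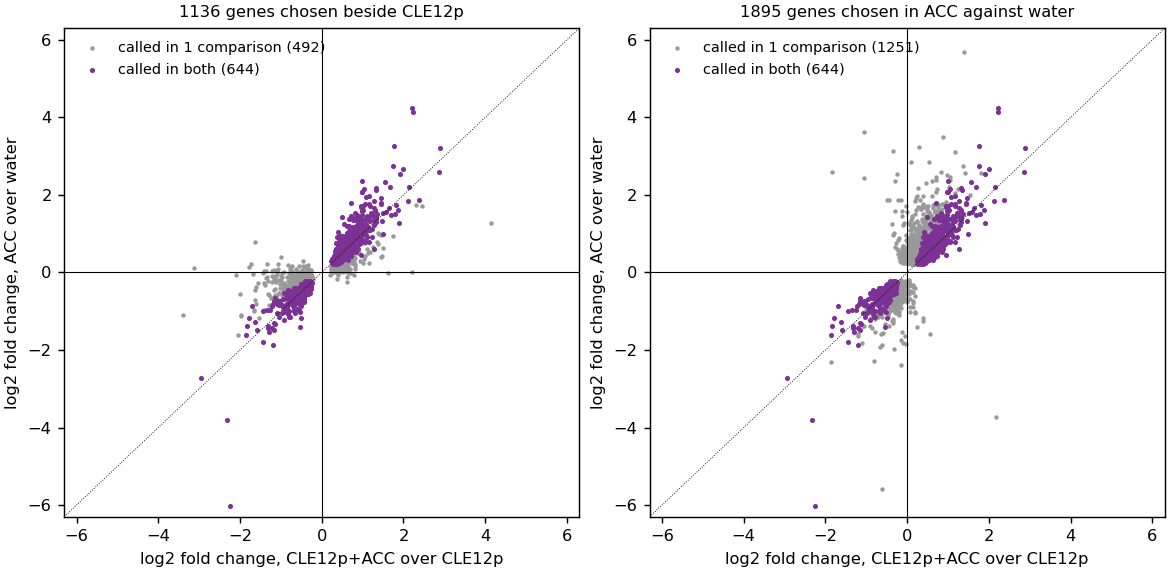
Log2 fold change of ACC over water (vertical) against that of CLE12p with ACC over CLE12p (horizontal), left for the 1136 genes called beside CLE12p and right for the 1895 called in ACC against water, with the line of equal change dotted. Points lie mainly in the quadrants of equal sign, and genes called in both comparisons fall in those quadrants only (395 higher and 249 lower).

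Whether ACC acted differently with the peptide was tested as an interaction, which is the log2 fold change of ACC beside CLE12p minus that in water. Of 23413 genes 2 passed (0.00854%), and 1886 had an unadjusted p below 0.05 (8.06%). If no gene differed, a share of about 0.05 would fall below that p. Under the alternatives run, the number of genes that passed ranged from 0 to 39. Lsat_1_v5_gn_6_12161 had 20.1, 9.62 and 11.3 CPM in ACC, against 1.88, 1.92 and 3.22 CPM in water, and 9.58, 11.7 and 6.51 CPM in CLE12p with ACC, against 9.15, 9.45 and 14.6 CPM in CLE12p. ACC raised it where the peptide was absent (2.54 ± 0.32 on the log2 scale, SE; edgeR adjusted p = 2.60e-05), while beside the peptide the groups overlapped (-0.26 ± 0.28; adjusted p = 0.748). The interaction was -2.79 ± 0.43 (adjusted p = 0.0246). The neighbouring tested identifier on the lower side, Lsat_1_v5_gn_6_12141, averaged 6.66 CPM in ACC and 0.750 CPM in water. It was itself called higher with ACC (log2 fold change 3.13, edgeR adjusted p = 6.68e-04). The neighbour on the upper side, Lsat_1_v5_gn_6_12200, averaged 5.72 CPM in ACC and 7.82 CPM in water (log2 fold change -0.45, edgeR adjusted p = 0.114). Reads of near-identical copies could be shared between neighbours, which was not tested.

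Lsat_1_v5_gn_5_104920 had 42.5, 31.4 and 32.9 CPM in ACC, against 20.0, 19.0 and 20.3 CPM in water, and 31.4, 25.6 and 24.3 CPM in CLE12p with ACC, against 28.4, 30.2 and 36.4 CPM in CLE12p. The ACC effect was 0.85 ± 0.12 in water (SE; edgeR adjusted p = 7.74e-05) and -0.22 ± 0.12 beside the peptide (adjusted p = 0.359), with an interaction of -1.07 ± 0.17 (adjusted p = 0.0246). ACC replicate 1 was the highest ACC library for both genes. Without it the interactions were -2.41 and -0.93 and no longer passed (adjusted p = 0.0871 for both). They also failed to pass without water replicate 1 (adjusted p = 0.168 for both), water replicate 2 (0.157) or CLE12p with ACC replicate 3 (0.129). Both calls were lost as well with replicate number as a block (adjusted p = 0.0793 for both) and in a fit of the 12 libraries of the interaction alone (0.0595 and 0.116), and that of Lsat_1_v5_gn_5_104920 with ethanol as the control (0.0661).

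**Figure D5:**
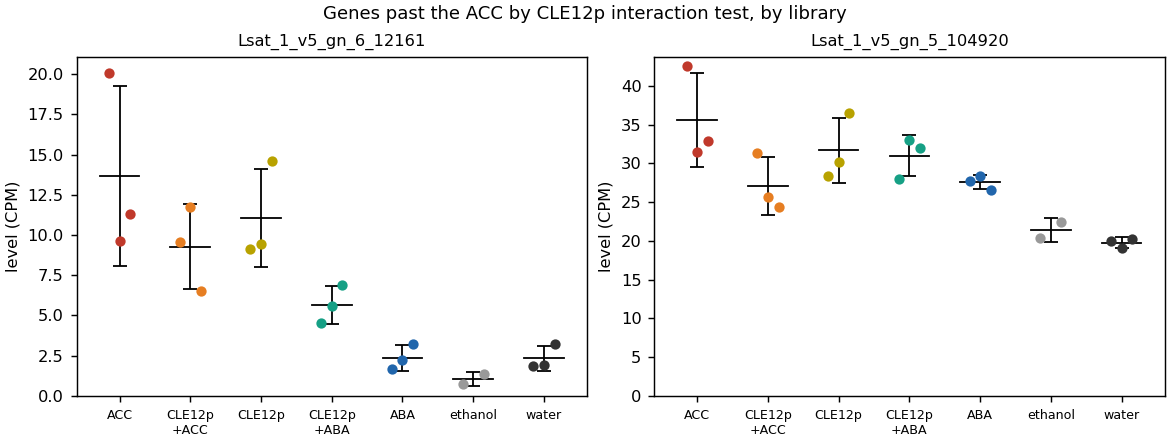
Level in CPM of the 2 genes past the interaction test, in each of the 20 libraries by group, with the group mean (bar) and SD (whiskers). Both stand above water in ACC and in CLE12p, while CLE12p with ACC overlaps CLE12p for both genes.

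ABA against ethanol shares no library with ACC against water, but both tests used a spread estimated over all libraries, so their calls were not independent. The genes that ACC changed were looked up in ABA against ethanol. ABA changed 2378 genes (10.2% of those tested), 1206 that rose and 1172 that fell. Without ethanol replicate 1 there were 725 that rose and 822 that fell (1547 in all), and without ethanol replicate 2 there were 657 and 741 (1398 in all), and the shares below were not recomputed for these. Of the 1165 genes that rose with ACC, 157 were called higher with ABA (13.5%, beside 5.15% of all genes tested) and 203 lower (17.4%, beside 5.01%), with a median log2 fold change of -0.05 (interquartile range -0.35 to 0.26). Of the 730 genes that fell with ACC, 111 were called higher with ABA (15.2%) and 51 lower (6.99%), with a median of 0.08 (-0.13 to 0.32). In both lists the ABA calls opposite to ACC outnumbered those in the direction of ACC. As a share of the ABA lists, the genes that ACC raised made up 13.0% of the 1206 that rose with ABA. They made up 17.3% of the 1172 that fell, beside 4.98% of all genes tested. The genes that ACC lowered made up 9.20% and 4.35% of these lists, beside 3.12% of all genes tested. Median levels over all libraries were 28.7 CPM for genes that rose with ACC, 22.0 CPM for those that fell and 13.0 CPM for all genes tested. The part of this difference in level in the shares was not tested. Across all 23413 genes the fold changes of ACC and ABA correlated with Pearson r = -0.06 and Spearman rho = -0.08, as a description across genes.

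The identifiers carry 2 numbers after the prefix, and the files do not say what they stand for. By the first of these, which runs from 0 to 9, the share of tested genes called in ACC against water ran from 6.94% (first number 5) to 8.76% (first number 7), around the 8.09% of all genes. When tested genes with first numbers 1 to 9 were put in order of the second number, 185 of 1156 genes that rose had a nearest identifier on either side that also rose (16.0%), and 9.28% of the genes that did not pass as higher had such a neighbour. For genes that fell it was 80 of 724 (11.0%), against 5.94%. There were 9 runs of 3 consecutive tested identifiers that all rose and 4 runs of 3 that all fell, with no longer run. Counting of near-identical or overlapping neighbours could make such pairs, and its part was not tested.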

How the data were processed

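Messenger levels were taken from raw counts per gene model, deposited by the authors as whole numbers with 1 column per library. The submitters' processing notes list STAR 2.7.10a. For the counter, its strand setting, the build and the gene models, the name or version was not given in the sources used here, so reads of overlapping, antisense or near-identical genes cannot be told apart. Per the labels' protocols, RNA was DNase-treated and made into standard Illumina libraries.

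Counts were tested with edgeR 4.0.16 (R 4.3.3). filterByExpr with a minimum count of 10 kept 23413 of 37828 gene models (9654 had 0 counts in all libraries). TMM scaling and a quasi-likelihood model of 7 group means over 20 libraries (13 residual degrees of freedom) followed. Tests were two-sided, with Benjamini-Hochberg adjustment over all genes tested and a threshold of 0.05. Standard errors are the size of the log2 fold change over the root of the F statistic. Log2 CPM used a prior count of 2. The change beyond 1.5-fold was tested with glmTreat. The procedure was tested on simulated data with the same spread for every gene and group. That test could not show how it performs where groups differ in spread. DESeq2 1.42.0 was an alternative, with others that changed scaling, filter, libraries, control or depth.

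No library repeated another, since chi-square divided by its degrees of freedom was 3.59 to 24.9 for replicate pairs. Genes described by identifier are the 2 with the smallest p in each direction among calls at 1 log2 CPM or more on average and with no overlap between groups, and every interaction call. Neighbouring identifiers were added after their values were seen. The reference table (Lsat_Salinas_v11, 51651 genes) matched 0 identifiers, so lists of named genes could not be used. The comparison and the rules were chosen with earlier results of these data known.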

Additional observations from a re-analysis of the deposited data

Results flagged for a closer look

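The effect of ACC differed with and without CLE12p in 2 genes by the interaction test, Lsat_1_v5_gn_6_12161 with -2.79 on the log2 scale and Lsat_1_v5_gn_5_104920 with -1.07 (edgeR adjusted p = 0.0246 for both). Neither passed with replicate number as a block (adjusted p = 0.0793 for both) or in a fit of the 12 libraries of the interaction alone (0.0595 and 0.116). Both were higher in ACC than in water in 3 of 3 libraries. The groups held 2 or 3 libraries, too few to test for a single library far from the rest of its group. By root mean square difference of log2 CPM, CLE12p replicate 2 lay 0.502 and 0.556 from the other CLE12p libraries. It lay 0.469 to 0.511 from the water libraries. Without CLE12p replicate 2 the interaction called 23 genes, and the reason was not tested.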

How the results depend on the processing

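The count of 1895 calls for ACC against water stayed within 1.5 times under 11 of 15 alternatives. It was 2271 in DESeq2, 2674 when only the libraries compared were fitted, 1371 with ethanol as the control (1031 genes shared with the calls against water) and 2436 with both controls pooled. Thinning all libraries to 18614220 counts, chosen after seeing the data, gave 1803 calls, of which 1693 were shared. The glmTreat test against 1.5-fold gave 162 genes for ACC against water, 28 beside CLE12p, 0 for the interaction (312 at an unadjusted p below 0.05) and 596 for ABA against ethanol; a stricter question explains the lower counts by construction. Leaving out 1 library at a time gave 1094 to 1668 calls for ACC against water, 559 to 1617 beside CLE12p, 0 to 23 for the interaction (23 without CLE12p replicate 2) and 1398 to 1928 for ABA against ethanol (1398 without ethanol replicate 2 and 1547 without ethanol replicate 1). A lone ethanol library was then assumed to vary like the other groups. When only the libraries compared were fitted, 362 genes were called beside CLE12p (64.4% of them higher, against 51.8% in the fit of all libraries), and the interaction called 1 gene, Lsat_1_v5_gn_4_86881 (adjusted p = 0.0165). The interaction called 10 genes with no filter on low counts, 39 in DESeq2, 1 with ethanol as the control (Lsat_1_v5_gn_6_12161) and 9 with pooled controls; the cause was not tested. Under the alternatives run, no gene chosen in ACC against water or past the interaction test reversed its direction. More genes rose than fell in ACC against water under each of them. The balance of calls did change elsewhere in some settings. For ABA against ethanol it went from 1206 higher and 1172 lower to 263 and 333 with glmTreat. Beside CLE12p it went from 588 and 548 to 807 and 810 without CLE12p replicate 3.

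The replicate numbers were not taken to pair the libraries. Deviations of same-numbered ACC and water libraries correlated at -0.02, -0.01 and 0.03. Those of CLE12p with ACC and CLE12p correlated at 0.03, 0.10 and 0.11, while differently numbered ones ranged from -0.14 to 0.05, and CLE12p with ACC replicate 1 correlated best with CLE12p replicate 2. Those of ABA and ethanol correlated at 0.03 and 0.03. With replicate number as a block, 1706 genes were called for ACC against water, 1002 beside CLE12p, 2188 for ABA against ethanol and 0 for the interaction (1755 at an unadjusted p below 0.05, and 39 in DESeq2 without the block).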
